A study of Danio rerio with 9 samples.

Results

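The genes described here encode the proteins of the cytosolic ribosome, its large and its small subunit, in zebrafish embryos exposed to pentachlorophenol. Members were the genes whose current symbol begins with rpl or rps and a digit, with rplp or with rpsa, together with faua, and without the rps6k kinases. Only probe sets that the platform annotation gives to a single gene were used, and the brightest probe set by mean over the 9 arrays stood for its gene. This gave 75 genes of 8793 named on the array, 45 of the large subunit and 30 of the small subunit, and all 75 passed the filter on dim probe sets. By their symbols 2 of them are not known as ribosomal subunits and were kept because they meet the rule, rpl7l1, a relative of rpl7, and rps19bp1, whose human counterpart encodes a protein that binds the small-subunit protein made from rps19.

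The embryos were wild type, of the strain Tuebingen, taken whole at the gastrula stage at about 8 h after fertilisation. One group was kept in deionized water, one was exposed to 20 µg/L pentachlorophenol and one to 50 µg/L, with 3 arrays each that the labels call biological replicates. Pentachlorophenol is a chlorinated phenol and biocide, known to uncouple oxidative phosphorylation. The labels describe timed egg collections exposed in the solution and embryos picked by stage under a microscope, and do not give the number of embryos or clutches behind a sample, so p-values reflect no more than the spread among these 9 arrays.

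Ribosomes are built from ribosomal RNA and one copy of most ribosomal proteins. The small subunit reads the mRNA, the large subunit joins the amino acids, and a flexible stalk on the large subunit recruits translation factors. In vertebrates the mRNAs of these proteins are very abundant, and many start with a tract of pyrimidines (the TOP sequence) through which their translation is controlled together. The early zebrafish embryo starts with ribosomes and mRNAs laid down in the egg and adds its own transcripts before gastrulation.

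The deposited values are signal intensities, 1 per probe set and array, which the authors scaled so that all arrays have the same trimmed mean of 500.1 or 500.2. Control replicate 3 and 50 µg/L replicate 1 were the arrays least like the others, with median rank correlations of 0.847 and 0.878 against 0.906 to 0.922 for the rest. All 14 gastrula genes looked for were on the array, and their summed signal was 43867 to 47544 in control embryos, 50437 to 58082 at 20 µg/L and 66367 to 79145 at 50 µg/L. At 50 µg/L against control 3.45% of all probe sets tested rose and 1.03% fell (limma adjusted p under 0.05). Of the 14 gastrula genes, 3 rose and 1 fell. The log2 change was positive in 12 and negative in 2. Of 15 maternal and oocyte transcripts, 9 rose at 50 µg/L (limma adjusted p under the threshold of 0.05) and none fell, and none was listed at 0. Their log2 change was positive in 14 and negative in 1, which had all 50 µg/L arrays below all controls. The summed signal of those 15 was 13796 to 17226 in control embryos, 12683 to 16339 at 20 µg/L and 33214 to 54769 at 50 µg/L. The part of this difference in the results below was not tested. In whole embryos fewer cells of a type and less RNA per cell cannot be told apart.

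Ribosomal protein signals were lower on every 50 µg/L array than on every control array when each subunit was summarised by its median. For each gene the log2 signal on an array was set against the mean of the 3 control arrays. The median deviation over the 45 large-subunit genes was -0.06, -0.17 and 0.22 on control replicates 1, 2 and 3. On the 50 µg/L arrays it was -0.60, -0.54 and -0.58. Over the 30 small-subunit genes it was -0.08, -0.11 and 0.24 in controls and -0.64, -0.54 and -0.73 at 50 µg/L. The 20 µg/L arrays lay apart from each other, with large-subunit medians of -0.28, 0.14 and -0.45 and small-subunit medians of -0.34, 0.02 and -0.49. Replicate 2 of 20 µg/L thus stood within the range of the controls, while replicates 1 and 3 stood below it. Of the 75 genes, 73, 74 and 75 were below their control mean on the 50 µg/L arrays, 65, 23 and 74 on the 20 µg/L arrays, and 55, 57 and 16 on the control arrays.

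**Figure D1:**
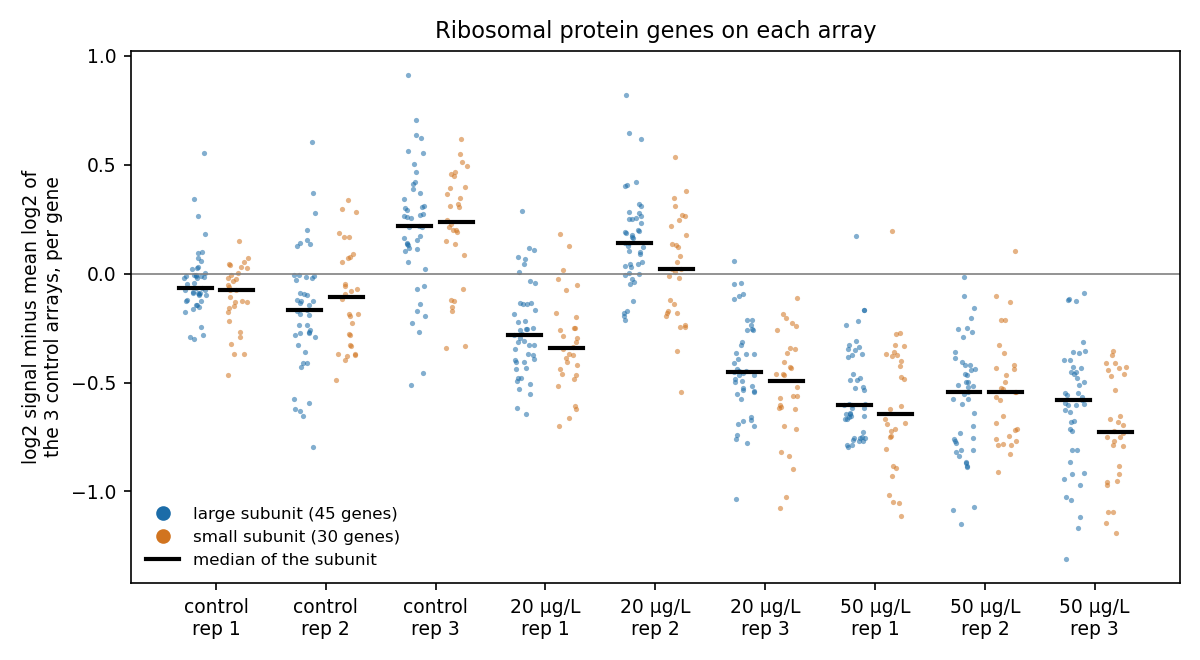
Each point is 1 ribosomal protein gene on 1 array, drawn as its log2 signal minus its mean log2 signal over the 3 control arrays, with 45 large-subunit genes in blue and 30 small-subunit genes in orange. Black bars are the subunit medians, which lie between -0.54 and -0.73 on the 50 µg/L arrays, while control replicate 3 (0.22 and 0.24) and 20 µg/L replicate 2 (0.14 and 0.02) lie above 0.

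The same order appeared in the summed signal. The 75 probe sets carried 12.4% ± 1.5 (SD, n = 3) of the summed signal of all probe sets on control arrays, with 11.8%, 11.3% and 14.1% on replicates 1, 2 and 3. At 20 µg/L the share was 11.0% ± 1.61 (SD, n = 3), from 9.56% to 12.7%. At 50 µg/L it was 8.95% ± 0.316 (SD, n = 3), from 8.63% to 9.26%, below each control and each 20 µg/L array. Large-subunit probe sets made up 7.32% in controls and 5.37% at 50 µg/L, and small-subunit probe sets 5.10% and 3.58%.

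**Figure D2:**
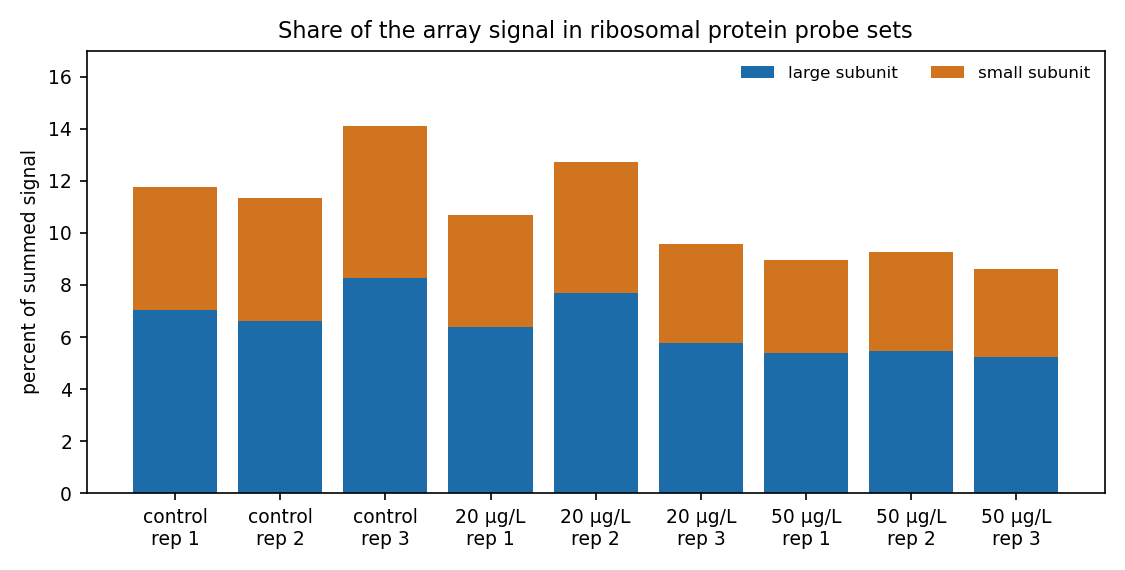
Bars give the percent of the summed signal of all probe sets, other than the manufacturer's controls, that falls on the large-subunit (blue) and small-subunit (orange) probe sets of each array. The whole bars run from 8.63% to 9.26% at 50 µg/L and from 11.3% to 14.1% in controls, with control replicate 3 the highest.

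At 50 µg/L against control all 75 genes had a negative log2 change, from -0.97 to -0.06, with a median of -0.61. The median over all 9301 probe sets tested was 0.10, and 43.9% of them had a negative change. Of the 75, 6 fell and none rose in the limma test, and 69 did not pass. Of all probe sets tested, 1.03% fell and 3.45% rose. With the replicate number as a block none of the 75 genes passed, and 0.484% of all probe sets fell. Deviations of same-numbered arrays of these 2 groups had correlations from 0.103 to 0.233, and those of differently numbered arrays from -0.308 to 0.213. In 57 of the 75 genes, 33 of the large and 24 of the small subunit, every 50 µg/L array was below every control array, which was the case for 10.4% of all probe sets tested. Without an adjustment for many tests 56 genes had p under 0.05, all of them lower, against 8.65% of all probe sets.

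In the large subunit 3 of 45 genes fell, rpl35, rpl27 and rpl18. The first of them, rpl35, encodes a protein beside the tunnel through which the new chain leaves the ribosome. Its signal was 23351, 23187 and 30347 in control embryos, 20246, 26208 and 15652 at 20 µg/L, and 14912, 14902 and 12983 at 50 µg/L. The 50 µg/L arrays lay below all others, with a log2 change against control of -0.84 (SE 0.21, limma adjusted p = 0.0471). Signals of rpl27 were 18292, 15410 and 22249 in controls, 13091, 19114 and 15891 at 20 µg/L and 10979, 10126 and 10507 at 50 µg/L. The 50 µg/L arrays were again below all others, and the log2 change was -0.81 (SE 0.21, adjusted p = 0.0463). For rpl18 the values were 25393, 26720 and 28999 in controls, 21742, 23800 and 16926 at 20 µg/L and 15849, 18957 and 13116 at 50 µg/L. Both exposed groups were below the 3 control arrays, with a log2 change of -0.77 at 50 µg/L (SE 0.20, adjusted p = 0.0474).

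Among large-subunit genes that did not pass were 3 with changes as large as these. The log2 change was -0.88 for rpl22l1 (SE 0.31, adjusted p = 0.109), -0.84 for rpl28 (SE 0.24, adjusted p = 0.0594) and -0.84 for rpl5a (SE 0.25, adjusted p = 0.0701). The structural proteins of the tunnel and the peptidyl transferase region encoded by rpl4 and rpl3 had -0.73 and -0.58 (adjusted p = 0.0582 and 0.103). For the stalk, the genes rplp0, rplp2 and rplp2b had -0.71, -0.64 and -0.54 (adjusted p = 0.086, 0.155 and 0.137). The gene rpl11, whose human product binds MDM2 together with that of rpl5 when ribosome assembly fails, had -0.46 (adjusted p = 0.153). The genes rpl22 (-0.70), rpl10 (-0.67), rpl23a (-0.62) and rpl13a (-0.51) did not pass either. The values closest to 0 were those of rpl5b (-0.06), rpl7a (-0.19), rpl7l1 (-0.29), rpl12 (-0.33) and rpl38 (-0.34). In rpl7a the signals were 29496, 32439 and 26755 in controls and 26242, 24514 and 27040 at 50 µg/L, so the groups overlapped.

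In the small subunit 3 of 30 genes fell, rps16, rps27.2 and faua. The gene rps16 encodes a protein at the site that holds the peptide-carrying tRNA. Its signal was 21205, 16515 and 35633 in controls, 16792, 20250 and 15732 at 20 µg/L and 11215, 12338 and 11984 at 50 µg/L. Control replicate 3 was far above the other controls here, and the log2 change was -0.97 (SE 0.25, limma adjusted p = 0.0495). The gene faua encodes a small-subunit protein made as a fusion with a ubiquitin-like protein. It had 18481, 15452 and 20762 in controls, 13542, 15986 and 11038 at 20 µg/L and 10807, 10998 and 8470 at 50 µg/L, with a log2 change of -0.85 (SE 0.21, adjusted p = 0.0429). For rps27.2, one of several genes for the same small-subunit protein, the values were 5680, 5917 and 6788, then 4730, 5154 and 3759, then 2944, 4196 and 2857. All 3 exposed arrays at each dose were below all controls in rps27.2, and the log2 change at 50 µg/L was -0.90 (SE 0.23, adjusted p = 0.0488).

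Several central small-subunit genes had changes of the same size without passing. The gene rps2, whose product lies at the entry of the mRNA channel, had 36613, 33584 and 45286 in controls and 23706, 22116 and 17257 at 50 µg/L, or -0.87 on the log2 scale at an adjusted p of 0.0529 in limma (SE 0.23). For rps26l the change was -0.84 (adjusted p = 0.111). The gene of the protein phosphorylated by S6 kinase, rps6, had 18932, 14918 and 25401 in controls and 11697, 11230 and 11699 at 50 µg/L (-0.74, adjusted p = 0.0844). Its 50 µg/L arrays were below all controls, and its 20 µg/L arrays, with 18954, 21221 and 13074, overlapped them. The genes rpsa, rps14 and rps3 had -0.67, -0.62 and -0.50, and rps19, a gene mutated in human Diamond-Blackfan anaemia, had -0.45 (adjusted p from 0.0742 to 0.237). The ubiquitin fusion gene rps27a had -0.54 and rps29 had -0.53. Nearest to 0 were rps19bp1 (-0.15), rps24 (-0.30), rps12 (-0.38), rps7 (-0.42) and rps19. A second probe set of rps19bp1 had 0.55 (adjusted p = 0.379), so its 2 probe sets differed in direction and neither passed.

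**Figure D3:**
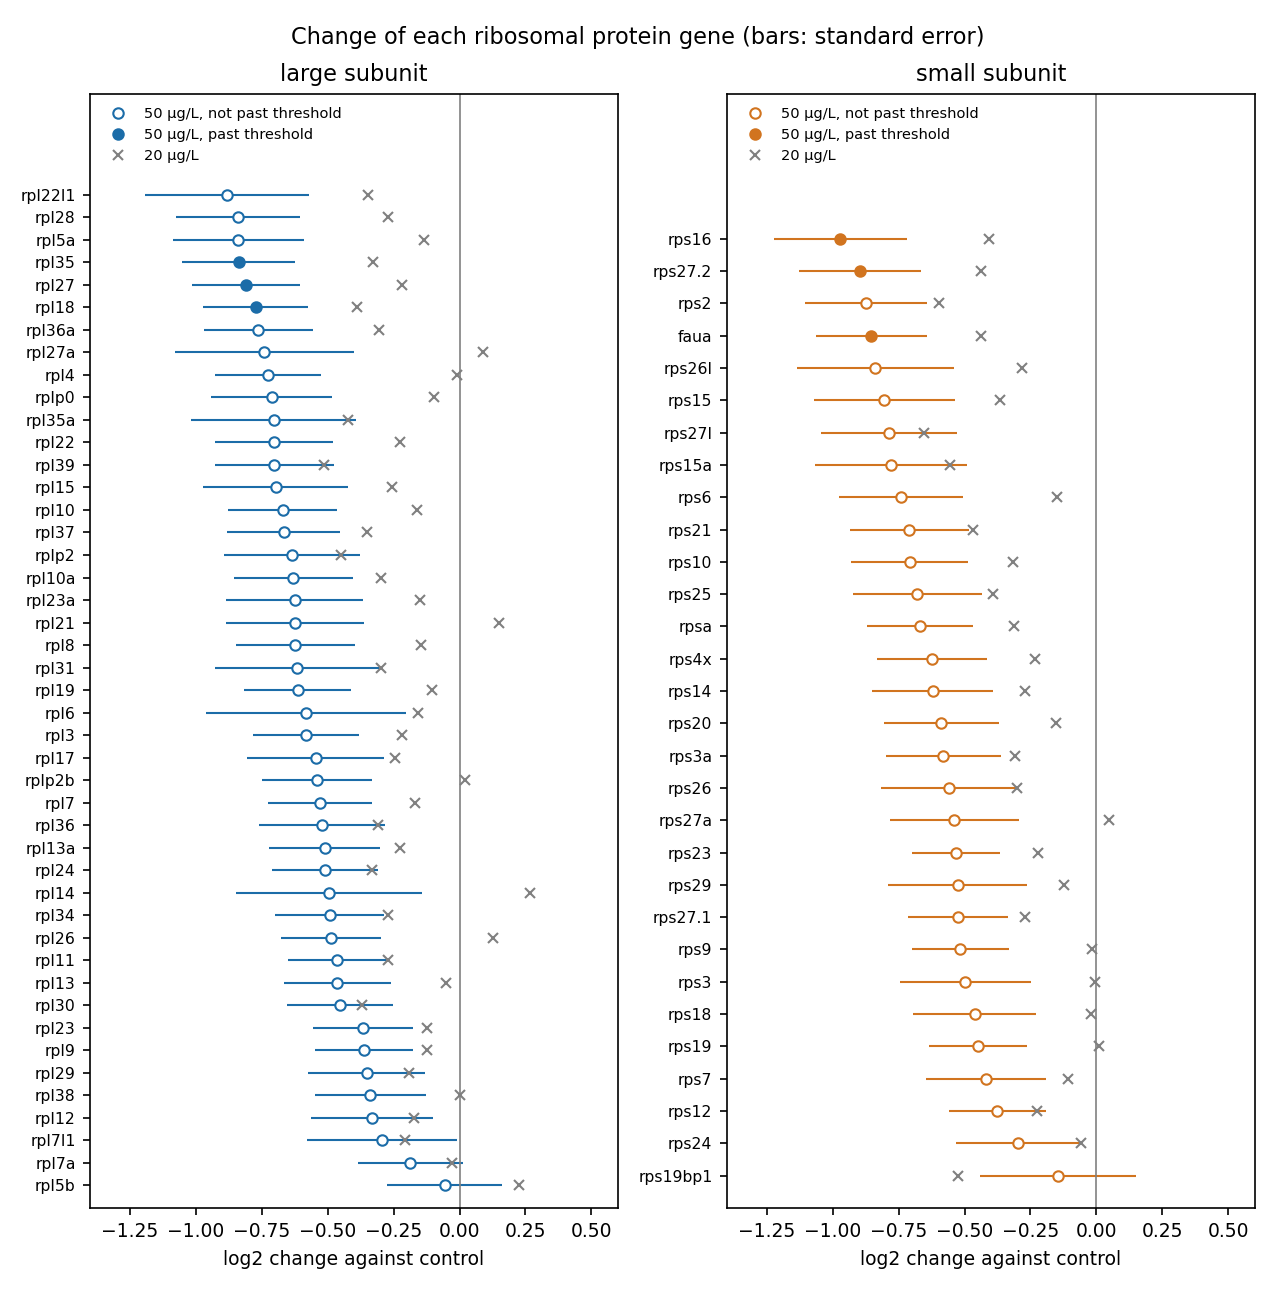
Circles give the log2 change at 50 µg/L against control for each gene with its standard error, filled where the limma adjusted p is under 0.05, and crosses give the log2 change at 20 µg/L. All circles lie below 0, from -0.97 (rps16) to -0.06 (rpl5b), and the 6 filled ones are rpl35, rpl27, rpl18, rps16, rps27.2 and faua.

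The calls of single genes depended on which arrays were in the fit. Without 50 µg/L replicate 1 none of the 75 genes passed, and none passed without control replicate 1 or 3, 20 µg/L replicate 1, or 50 µg/L replicate 2 or 3, while 16 passed without control replicate 2, 7 without 20 µg/L replicate 3 and 1 without 20 µg/L replicate 2. Calls over the whole table moved as well: no probe set fell or rose without 50 µg/L replicate 1, 2.37% fell without control replicate 2, 1.23% without 20 µg/L replicate 3 and 0.333% without 20 µg/L replicate 2. The direction changed less, since at least 73 of the 75 changes stayed negative with any 1 array left out. The 75 genes share their arrays and moved together on them, so their signs are not independent.

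The medians of the gene changes at 50 µg/L were -0.61 for the large and -0.60 for the small subunit, a difference of -0.01. Taken array by array, the large-subunit median minus the small-subunit median was 0.01, -0.06 and -0.02 in controls, and 0.04, -0.00 and 0.15 at 50 µg/L. The means were -0.02 ± 0.04 and 0.06 ± 0.08 (SD, n = 3), and the groups overlapped, with a pooled SD between arrays of 0.05. The change by array means is thus positive where the difference of the gene medians is -0.01. At 20 µg/L the array values were 0.06, 0.12 and 0.04, above all 3 controls, with group medians against control of -0.21 for the large and -0.28 for the small subunit. The difference of the gene medians at 50 µg/L was 0.10 without control replicate 1 and 0.08 without control replicate 3, beside -0.01 with all arrays. The pooled SD of 0.05 is between single arrays and does not measure the spread of this difference. The 25th and 75th percentiles of the log2 changes at 50 µg/L were -0.70 and -0.49 in the large subunit and -0.77 and -0.52 in the small subunit.

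The size of the change depended on which arrays were used and on how they were brought to a common scale. Among the 6 arrays of replicates 1 and 2 the large and small subunit medians at 50 µg/L were -0.46 and -0.47. The median of the 75 genes minus that of all probe sets was -0.72 with all arrays. It was -0.57 without control replicate 3 and -0.79 without control replicate 2. Ribosomal protein probe sets are among the brightest of the array, with 74 of 75 among the 930 brightest of the probe sets tested. The 853 others in that bright group, none of them annotated to 1 of the 75 genes alone, had a median log2 change of -0.20 at 50 µg/L. Probe sets annotated to several genes or to none were not taken out of these 853. Nor were the 853 matched to the 75 genes for brightness. The median percentile of the 75 genes by mean log2 signal was 99.0, while the 930 reached down to a mean signal of 2640. A difference from equally bright probe sets was not tested. Of the 853, 67.5% had a negative log2 change and 23.8% had all 50 µg/L arrays below all controls. After quantile normalization, which gives each array the same distribution of values, the medians were -0.20 for the large and -0.21 for the small subunit, and those bright probe sets had -0.02. After cyclic loess normalization they were -0.19 and -0.15, with 0.02 for the other bright probe sets. Both scalings bring the bright ends of the arrays together, where most of the 75 genes lie, so they can take out part of a change in these genes. The size of that part was not tested. No ribosomal protein gene passed under either scaling, and the number of genes with all 50 µg/L arrays below all controls was 11 and 8 of 75. The shares of all probe sets were then 14% and 13%, so these counts were near or below the background. After cyclic loess the subunit medians also overlapped between the groups: 50 µg/L replicate 2 had -0.0678 in the large and -0.0765 in the small subunit, above control replicate 2 with -0.151 and -0.0842. Negative changes were seen in 66 and 64 of the 75 genes. With each array centred on its median the changes became larger, -0.90 and -0.89, and 22 genes passed, while 3.92% of all probe sets fell in place of 1.03%. Under quantile normalization the gene rpl5b had a positive log2 change of 0.34 and rpl7a one of 0.18, neither past the threshold, and rps27.2 had the lowest value at -0.73 (limma adjusted p = 0.0784).

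**Figure D4:**
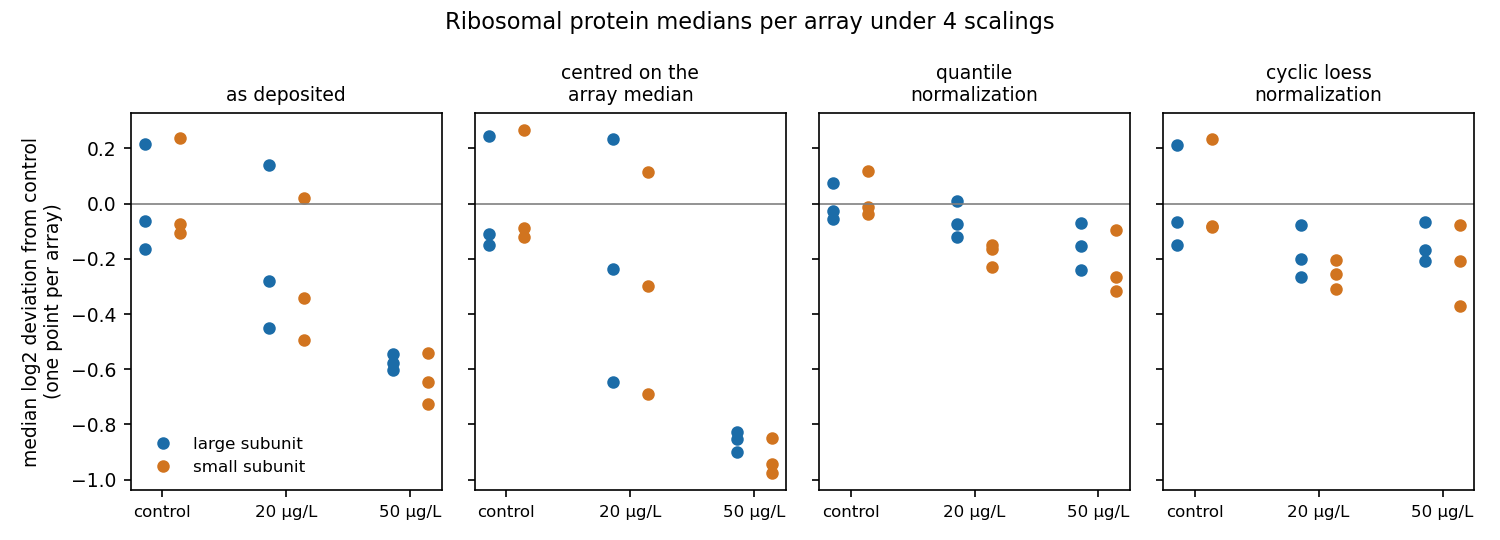
Points are the median log2 deviations from control of the large-subunit (blue) and small-subunit (orange) genes, 1 point per array, with the deposited scale and 3 other scalings side by side. The 50 µg/L arrays are clear of the controls on the deposited scale (-0.54 to -0.73) and after centring (-0.83 to -0.98), nearer to them after quantile normalization (-0.07 to -0.32), and overlap them after cyclic loess normalization (-0.07 to -0.37).

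At 20 µg/L against control no ribosomal protein gene passed in the limma test, where the share over all probe sets was 0% for falls and 0% for rises. Without adjustment 3 genes were lower with p under 0.05 and none higher, against 3.57% of all probe sets. Of the 75 genes, 66 had a negative log2 change, with a median of -0.22 and a range from -0.65 to 0.27. The median over all probe sets was -0.04, and 53.4% of them had a negative change. In 7 genes all 20 µg/L arrays were below all controls, or 9.33%, close to the 6.96% of all probe sets, and in none were they above all controls, against 5.71%. They were rpl18, rplp2, rps19bp1, rps2, rps23, rps27.2 and rps27l. Without 20 µg/L replicate 2 there were 36 such genes, where 10.7% of all probe sets met the same rule with 1 array fewer. The large and small subunit medians at 20 µg/L, -0.21 and -0.28, were -0.38 and -0.40 without 20 µg/L replicate 2, -0.08 and -0.15 without 20 µg/L replicate 3, and -0.08 and -0.12 without control replicate 3. In each of the last 2 cases 53 of 75 changes were negative.

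Comparisons of each dose with control share the control arrays. The lowest values at 20 µg/L were those of rps27l (-0.65), rps2 (-0.59) and rps15a (-0.56) in the small subunit and rpl39 (-0.51), rplp2 (-0.45) and rpl35a (-0.42) in the large subunit, each with adjusted p of 0.611 or more. In rps27l, a relative of rps27.1, the signals were 2877, 4181 and 4273 in controls, 2599, 2548 and 1996 at 20 µg/L and 1836, 2777 and 1966 at 50 µg/L. Both exposed groups lay below the controls and overlapped each other. The highest values were those of rpl14 (0.27), rpl5b (0.23) and rpl21 (0.15). In the small subunit the highest were rps27a (0.05), rps19 (0.01) and rps3 (-0.00). Between arrays deposited with the same number of decimals, replicates 1 and 2 of each group, the large-subunit median was 0.05 and the small-subunit median -0.02, with 36 of 75 values negative.

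Between the doses, 50 against 20 µg/L, 41.7% of all probe sets and 72.8% of the 853 other bright ones had a negative log2 change. Of the 75 ribosomal protein genes 74 had one, all except rps19bp1 (0.38), with a median over the 75 of -0.36. None passed in the limma test, where 0.0323% of all probe sets fell and 1.35% rose, and 18 were lower and none higher with an unadjusted p under 0.05, against 5.13% of all probe sets. In 27 genes (36.0%) all 50 µg/L arrays were below all 20 µg/L arrays, against 9.75% of all probe sets. The share was 27.3% among the 853 other bright probe sets, whose median log2 change was -0.25. Among 41 translation elongation and initiation genes it was 43.9%, with a median of -0.44. The medians were -0.36 for the large and -0.37 for the small subunit, -0.19 and -0.20 without 20 µg/L replicate 2, and -0.54 and -0.51 without 20 µg/L replicate 3. The largest values were those of rpl27a (-0.83), rpl21 (-0.77), rpl14 (-0.76), rpl4 (-0.72) and rpl5a (-0.70). In rpl4 the signals were 21098, 26317 and 18168 at 20 µg/L and 14182, 11752 and 13593 at 50 µg/L, beside 22105, 18432 and 25168 in controls, so the 20 µg/L arrays overlapped the controls and the 50 µg/L arrays did not (adjusted p = 0.0963 between the doses). Among the 6 arrays of replicates 1 and 2, 8 genes passed, and 2.78% of all probe sets fell. Among all arrays except 20 µg/L replicate 3 a single gene passed, and 0.538% of all probe sets fell. After cyclic loess normalization the medians between the doses were 0.03 in both subunits, with 34 of 75 values negative, and after quantile normalization -0.10 in both.

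The mean log2 signal was highest in control embryos, lower at 20 µg/L and lowest at 50 µg/L in 65 of the 75 genes. Of these, 38 were of the large and 27 of the small subunit. This order was found in 19.7% of all probe sets and in 293 of the 853 other bright ones. After cyclic loess normalization 34 of the 75 genes were lower at 50 than at 20 µg/L, and after quantile normalization 53. No more genes than these can keep the order on those scales. On the deposited scale the order held array by array, with no overlap between any of the groups, in 1 gene, rps23. The shares were 0.473% of all probe sets and 0.938% of the other bright ones. The gene rps23, whose product lies at the decoding centre, had 26186, 25440 and 31433 in controls, 24338, 24996 and 21762 at 20 µg/L and 17930, 18623 and 20736 at 50 µg/L. It did not pass in any comparison (-0.53 at 50 µg/L, limma adjusted p = 0.0833), and it was singled out after its values were seen.

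Some ribosomal proteins are encoded by more than one gene on the array, and 7 pairs of such genes were compared by the log2 ratio of their signals within each array. The pair rpl5a and rpl5b, which encode a protein that carries the small ribosomal RNA of the large subunit, had the largest change of the 7 at 50 µg/L. Signals of rpl5a were 9547, 7912 and 12014 in controls, 8087, 11644 and 7276 at 20 µg/L and 6190, 5745 and 4466 at 50 µg/L. Those of rpl5b were 21542, 16795 and 15910 in controls, 17992, 27477 and 18641 at 20 µg/L and 20207, 15058 and 16826 at 50 µg/L. The 50 µg/L arrays lay below the controls in rpl5a and overlapped them in rpl5b. The log2 ratio of rpl5a over rpl5b was -1.17, -1.09 and -0.41 in controls and -1.71, -1.39 and -1.91 at 50 µg/L, a change of -0.78. With 3 arrays against 3 the two-sided exact permutation test gave p = 0.1, the smallest it can give, and 0.7 after adjustment over the 7 pairs. The pairs were chosen after earlier results were known, and probes of near-identical genes can bind each other's RNA, so the split of signal between such genes is uncertain.

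In the other 6 pairs the ratios in control and 50 µg/L embryos overlapped. The ratio of rpl22 over rpl22l1 changed by 0.18 between 1.09 ± 0.67 in controls and 1.27 ± 0.19 at 50 µg/L (SD, n = 3, exact permutation p = 0.8). The ratio of rps26 over rps26l changed by 0.28 (exact permutation p = 0.4) and that of rplp2 over rplp2b by -0.10 (p = 0.8, exact permutation). Among the rps27 genes the ratio of rps27.1 over rps27.2 changed by 0.37, that of rps27.1 over rps27l by 0.26 and that of rps27.2 over rps27l by -0.11, with exact permutation p from 0.3 to 0.7. Other probe sets of rps27.1 had log2 changes of -0.82 and -0.67 at 50 µg/L beside -0.53 for the brightest, and a second probe set of rpl3 had -0.45 beside -0.58, none of which passed. A second probe set of rpl21 did not pass the filter, with signals between 8.00 and 62.6.

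Related gene groups were set beside the ribosomal proteins as counts and medians, with no test of the difference between groups. Of 58 mitochondrial ribosomal protein genes tested at 50 µg/L, none passed in the limma test. Of them 17 (29.3%) had an unadjusted p under 0.05 in the limma test, beside 24.5% of all probe sets in either direction. Of these 17 genes, 16 were lower and 1 higher, where 8.65% of all probe sets were lower. The median log2 change of the 58 genes was -0.33. In 18 of them (31.0%) all 50 µg/L arrays were below all controls, beside 10.4% of all probe sets. At 20 µg/L their median was -0.23, and between the doses -0.01. Of 41 translation elongation and initiation genes, 13 were lower and 2 higher at 50 µg/L with an unadjusted p under 0.05 in the limma test. In 34.1% of the 41 all 50 µg/L arrays were below all controls. Their median at 50 µg/L was -0.33, at 20 µg/L -0.02 and between the doses -0.44. After adjustment 1 of the 41 fell and 1 rose at 50 µg/L, where 1.03% of all probe sets fell and 3.45% rose. The one that fell was eif3ba, a subunit of initiation factor 3 (-0.86, SE 0.21, adjusted p = 0.0398), from 8042, 7191 and 9219 in controls to 3739, 5078 and 4743. The riser was the helicase gene eif4a1b (1.30, adjusted p = 0.0471), whose control signals of 338, 801 and 438 were below all 3 exposed values of 1135, 1251 and 1258. The elongation factor genes eef1a1l1 and eef2b had -0.25 and -0.39 and did not pass.

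Of 11 other TOP mRNAs and ribosome-bound proteins, the histone chaperone gene nap1l1 rose at 50 µg/L (1.37, limma adjusted p = 0.0357) and none fell, with a median of -0.08. Of all probe sets 3.45% rose. At 20 µg/L the median of the 11 was 0.10, and 3 had all 20 µg/L arrays above all controls, beside 5.71% of all probe sets. Between the doses it was -0.25. Both tpt1, a growth-related gene with a well-known TOP sequence, and rack1, whose product sits on the small subunit, did not pass (-0.63 and -0.35). Signals of rack1 were 26449, 20971 and 40623 in controls and 23226, 20856 and 22234 at 50 µg/L, so the groups overlapped, and control replicate 3 was the highest as in many ribosomal protein genes. Of 45 ribosome biogenesis genes, 2 fell and none rose at 50 µg/L, with a median of -0.21, where 1.03% of all probe sets fell. The 2 were mycn, a transcription factor gene known to drive ribosome production (-1.14, adjusted p = 0.0357), and the nucleolar GTPase gene gnl3l (-1.05, adjusted p = 0.0421). At 20 µg/L the median of the 45 was 0.02, and between the doses -0.34. In 11 of the 45 all 20 µg/L arrays were above all controls and in 1 below, beside 5.71% and 6.96% of all probe sets. None of 17 translational control genes passed (median 0.31), nor any of 5 genes of nucleolar stress and the p53 pathway (median 0.30), and mdm2 had 1.08 (adjusted p = 0.0763). Of the translational control genes 3 (17.6%) had an unadjusted p under 0.05, 1 lower and 2 higher, and of the p53 genes 1 lower and 1 higher.

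**Figure D5:**
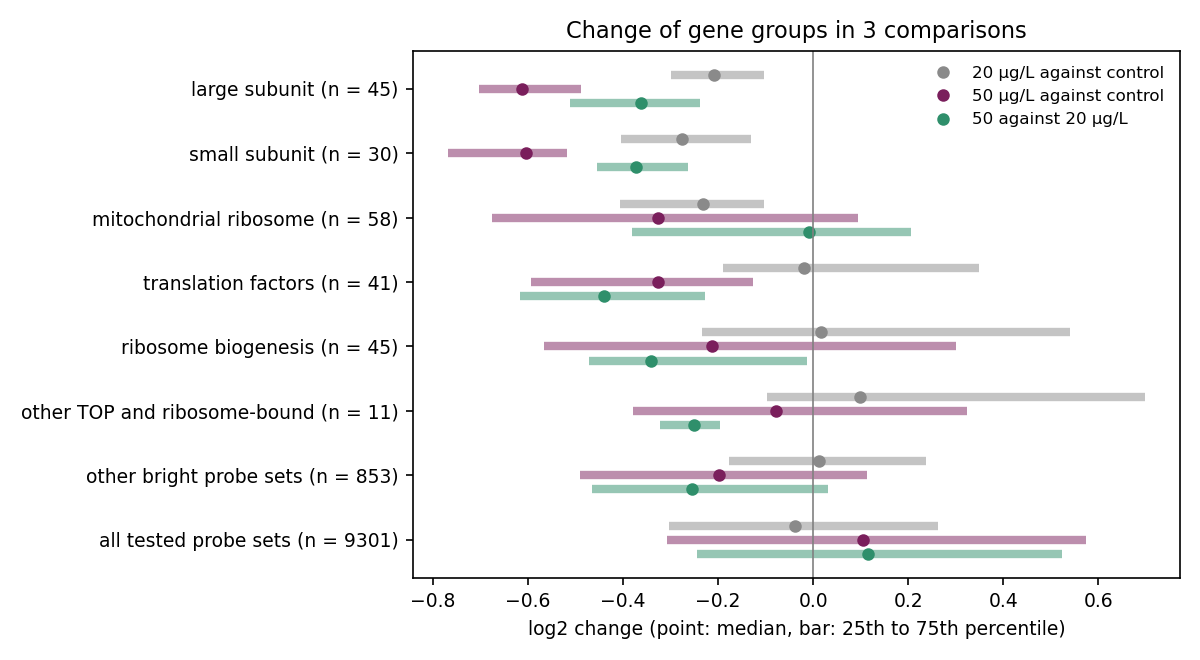
Points are the median log2 changes of gene groups in 3 comparisons and bars run from the 25th to the 75th percentile of their genes. At 50 µg/L the large and small subunit have medians of -0.61 and -0.60, mitochondrial ribosome and translation factors both -0.33, other bright probe sets -0.20 and all tested probe sets 0.10.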

How the data were processed

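RNA of whole embryos was measured on 9 Affymetrix arrays, 3 in each of 3 groups taken from the labels. The deposited values are linear signal intensities, 1 per probe set and array, made by the authors with GCOS and MAS5 per the submitters' processing notes, whose versions the sources used here do not state. The array number limits the precision. Of 15617 probe sets, 10802 had 1 gene in the platform annotation, 135 several and 4680 none. Values were taken as log2(value + 1) with no further scaling. The 115 manufacturer's control probe sets and the 40% of the others with the lowest mean log2 value were left out, which kept 9301. All 9 arrays were fitted with limma 3.58.1 in R 4.3.3 (group means, eBayes with trend), two-sided, with Benjamini-Hochberg adjustment over all 9301 and a threshold of 0.05. The fit was run on simulated data with independent noise of the same size for all probe sets. No shift shared by the probe sets of an array was simulated, so that run does not test calls under such shifts. Ratios of paralogs were tested by exact permutation in scipy 1.17.1, an alternative chosen after seeing the data.

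Members and gene lists were chosen with earlier results of these data known. Named genes were those past the threshold, the 5 lowest and 5 highest log2 changes per subunit at 50 µg/L, the 3 lowest and 3 highest at 20 µg/L, and genes listed by name for their role. Outside these rules, the 5 lowest changes between the doses, the genes without overlap at 20 µg/L and rps23 were named from their values. Replicate numbers were checked for pairing. Deviations of arrays with the same number correlated from 0.103 to 0.233 between 50 µg/L and control, over 0.1 in each of 3 pairs. In the same-numbered pairs with 20 µg/L they correlated from -0.165 to 0.0951. Between 50 µg/L and control arrays with different numbers the correlations ran from -0.308 to 0.213. The labels do not say what a number marks, so the fit has no block, and its value with one is given beside the count at 50 µg/L. Alternatives covered the offset, filter, scaling, blocks, array weights, variance trend, groups in the fit, probe set choice and each array left out. Promoter and protein sequences were not used here.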

Additional observations from a re-analysis of the deposited data

How the results depend on the processing

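The direction at 50 µg/L against control was negative for at least 64 of the 75 genes in each alternative run on all members, and none of the 6 genes that fell changed sign. The 75 genes share their arrays, so their signs are not independent. Signs did turn elsewhere: the medians between the doses became positive after cyclic loess normalization, where 40 of 75 genes had the other sign than before, the large-subunit median at 20 µg/L became positive among the 6 arrays, and the difference between the subunits at 50 µg/L became positive with some arrays left out. The count of 6 genes that fell was 0 with no filter, after quantile or cyclic loess normalization, without the variance trend, among the 6 arrays deposited in 1 number format and, in an alternative chosen after seeing the data, without both arrays that stand apart. From 0% to 1.31% of all probe sets fell in these runs. The count was 2 with only the groups compared in the fit, 22 after centring on the array median and 29 with array weights. The shares of all probe sets that fell were then 0.323%, 3.92% and 6.53%. With 1 array left out the count was from 0 to 16, and from 0% to 2.37% of all probe sets fell. With the replicate number as a block the count was 0, and 0.484% of all probe sets fell. The check of pairing gave correlations over 0.1 for all 3 same-numbered pairs of 50 µg/L and control, and not for same-numbered pairs with 20 µg/L. Differently numbered pairs of 50 µg/L and control had correlations from -0.308 to 0.213.

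The medians of the large and small subunit at 50 µg/L were -0.20 and -0.21 after quantile normalization, -0.90 and -0.89 after centring and -0.19 and -0.15 after cyclic loess. Genes without overlap numbered 11 after quantile and 8 after loess normalization, where 14% and 13% of all probe sets had none. The difference between the subunits ranged from -0.0199 to 0.0964 with 1 array left out and was 0.0663 without both arrays that stand apart.

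At 20 µg/L genes without overlap numbered 11 after quantile normalization, 2 after centring, 15 after loess and from 7 to 36 with 1 array left out. Among all probe sets the shares were 6.31%, 7.19% and 6.34% under these scalings and from 6.96% to 15.6% with 1 array left out. The gene count after centring was thus below the background, and those after quantile and loess normalization were above it. The large and small subunit medians at 20 µg/L were -0.11 and -0.13 after quantile normalization and -0.23 and -0.30 after centring. After loess they were -0.18 and -0.26, beside -0.19 and -0.15 at 50 µg/L. Among the 6 arrays 36 changes at 20 µg/L were negative, with medians of 0.0525 and -0.0200. Between the doses the medians were -0.10 and -0.10 after quantile normalization, -0.63 and -0.64 after centring and 0.0280 and 0.0316 after loess, where 34 changes were negative. Genes without overlap numbered 14, 46 and 12 under these scalings, 50 among the 6 arrays and from 27 to 49 with 1 array left out. The same was seen in 14%, 18.9% and 12.6% of all probe sets under the scalings and in 23.4% among the 6 arrays. With 1 array left out the share of all probe sets ran from 9.75% to 17%. The gene counts after quantile and loess normalization were thus near the background, and those after centring and among the 6 arrays above it. Genes that fell between the doses numbered 8 among the 6 arrays, 20 with array weights and from 0 to 1 with 1 array left out. Of all probe sets 2.78%, 6.01% and from 0% to 0.538% fell in these runs. The cause of these differences was not tested, nor was the part of the fewer degrees of freedom in fits on fewer arrays.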
